A study of Mus musculus with 8 samples.

Results

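The expression of 9 genes commonly used as dendritic cell markers was examined in the thyroids of mice exposed to 99mTcO4- and of control mice. The genes were Flt3, Zbtb46, Itgax, Irf8, Batf3, Clec9a, Cd209a, Clec10a and Cd83, taken by name from the annotation of the array, and every probe that carried one of these names was kept. They are 9 of the 34797 genes named on the array, and 14 of its 55681 probes measure them. In the exposed thyroids, Clec9a was lower by 2.92 on the log2 scale (SE 0.29, n = 4 against 4), with its probe well above background on none of their arrays. It was the only one of the 9 genes whose difference passed the threshold of limma's test (adjusted p = 0.00746), where 0.207% of all genes were called lower. Without controls 1 and 2, which stood apart in T cell and thymocyte genes, Clec9a no longer passed (limma adjusted p = 0.0525). Itgax, Irf8, Cd209a and Batf3 did not pass this threshold. On each of them and on Clec9a the 4 exposed arrays lay below the 4 control arrays, as for 4.74% of all genes. For Flt3, Zbtb46, Clec10a and Cd83 the groups overlapped.

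Dendritic cells take up antigen in tissues and carry it to lymph nodes, where they present it to T cells on MHC class II molecules. Type 1 conventional dendritic cells depend on the transcription factors Irf8 and Batf3, present antigen from dead cells and carry Clec9a. Type 2 conventional and monocyte-derived dendritic cells carry other surface lectins, among them Clec10a and Cd209a. Most of these genes are also used by other cells. Irf8 is made by B cells and macrophages, Itgax by some macrophages, Batf3 by some T cells, Clec10a by macrophages, Cd83 by activated B cells and thymocytes, Flt3 by blood progenitors, and Zbtb46 by endothelium, whereas Clec9a is among the most restricted of them.

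The exposed group comprised 4 female Balb/c mice, 8 weeks old and fed a normal-iodide diet, which received 99mTcO4- by the intraperitoneal route, corresponding to an absorbed dose of 30 Gy to the thyroid, and whose thyroids were taken 24 h later. The 4 controls did not receive 99mTcO4-, and the study describes them both as untreated and as given saline. RNA of each thyroid was hybridized to its own one-colour Agilent array, so n = 4 in each group, and the comparison asks which transcripts differ in abundance after the exposure. Control mice carry the numbers 1 to 4 and exposed mice the names S539, S588, S589 and S590, as in the labels. Whole thyroid was used, so that fewer dendritic cells and less RNA of a gene per cell cannot be told apart. The 8 arrays shared 1 slide and 1 scan, and the exposed samples took its first positions, for which reason an effect of position on the slide and one of the exposure cannot be told apart either.

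The spots well above background made up 60.5% to 75% of each control array and 70.9% to 77.3% of each exposed array, no spot was saturated, and pairs of arrays correlated with r of 0.943 to 0.975 across probes. Tg, the thyroglobulin gene that marks thyrocytes, was between 18.70 and 19.07 on all 8 arrays. Control 1 and control 2 stood apart from the other arrays in genes of T cells and thymocytes. With the mean over all arrays subtracted from each gene, the average log2 signal of 9 thymocyte genes was 3.17 in control 1 and 2.16 in control 2, against -1.16 and -1.07 in controls 3 and 4 and -1.27 to -0.22 in the exposed thyroids. Rag1, which is made in developing lymphocytes, was 11.96 and 10.64 in controls 1 and 2, 2.89 and 2.92 in controls 3 and 4, and at most 5.45 in the exposed. S588 stood apart in neutrophil genes, with a mean of 3.28 over 7 genes against -0.91 to 0.42 on the other arrays. The differences of the markers, the calls and the medians of the lists are therefore also given without controls 1 and 2, a comparison of 2 controls with 4 exposed thyroids chosen after the data were seen. The part of these cells in the results was not tested.

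Signals are log2 values of the background-subtracted spot intensity after quantile normalization between arrays, and probes are oligonucleotides of 60 bases whose brightness cannot be compared from one probe to another. A probe was counted as detected where the scanner software marked it well above background. Clec9a and Cd209a are each read by a pair of probes that gave unlike signals, and their sequences are shown for this reason. They are given 5' to 3', in lower case, with mm9 positions from the array annotation, which does not give exons. The pair for Clec9a lies at chr6:129372492-129372551, a probe designed on the RefSeq transcript, and at chr6:129369605-129369664, a probe designed on an Ensembl transcript. For the former and for the first Cd209a probe, the first 30 bases are shown.
Clec9a A_66_P103027: gcaatagtctgtaacgctttgcagatttca
Clec9a A_55_P2053302: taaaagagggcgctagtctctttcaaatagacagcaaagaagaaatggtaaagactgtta
Cd209a A_55_P2018061: ggacatggtgagcctcaatgttatagacct
Cd209a A_51_P133884: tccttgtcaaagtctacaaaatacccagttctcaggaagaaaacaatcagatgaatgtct
The Cd209a probes lie at chr8:3743481-3743540 and chr8:3747664-3748335. The second of these spans 672 bases of genome for 60 bases of probe, so it crosses at least 1 intron. The probes for Irf8, at chr8:123280324-123280383, and Itgax, at chr7:135294052-135294111, are the only ones for their genes, and those of Flt3 at chr5:148142576-148142635 and chr5:148174133-148174192 differed in direction. Their first 30 bases are as follows.
Irf8 A_52_P354823: aacagacagggtcgacagagtgtgtgatac
Itgax A_51_P303424: tcccatctacttttgcaacgttggaattga
Flt3 A_66_P116412: agatgctgtctgccattactccaaagtgac
Flt3 A_66_P126155: tttctggggccacacagcgagaccctgtct
No probe of the 9 genes shared a run of 20 bases with a probe of another gene.

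Clec9a, the receptor with which type 1 dendritic cells recognise the exposed actin of dead cells, changed most. Its RefSeq probe gave 6.62, 7.66, 7.25 and 6.73 in controls 1 to 4, and 4.55, 4.36, 3.75 and 3.93 in S539, S588, S589 and S590. Every control was above every exposed thyroid, by at least 2.07. The probe was well above background on all 4 control arrays and on none of the exposed arrays, so the exposed signals are only an upper bound. The means were 7.06 ± 0.49 (SD, n = 4) in controls and 4.15 ± 0.37 (SD, n = 4) in exposed thyroids. By these means Clec9a was 7.55-fold lower after exposure, a bound only in that the exposed signals were dim. The 95% confidence interval of the measured log2 difference ran from -3.58 to -2.25 (limma, adjusted p = 0.00746), so smaller folds lie within it. Of all 55681 probes, 0.194% were called lower in the same fit. The exact permutation test gave p = 0.0286 (two-sided), the smallest that 4 against 4 arrays allow. Without controls 1 and 2, the log2 difference was -2.84 and the adjusted p was 0.0525 in limma, which no longer passed.

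The other Clec9a probe was dim. It gave 4.00, 5.68, 5.38 and 4.71 in the controls and 3.81, 3.00, 3.03 and 3.09 in the exposed thyroids, in the same order. It was well above background in control 2 alone. The groups did not overlap, with a gap of 0.19 between control 1 and S539, and the means were 4.94 ± 0.75 and 3.23 ± 0.39 (SD, n = 4), with only 1 of these 8 signals well above background. This difference did not pass (log2 fold change -1.71, SE 0.38, limma adjusted p = 0.121; -1.81 and 0.151 without controls 1 and 2).

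Itgax, which encodes the integrin CD11c used to recognise dendritic cells in most tissues, had the largest difference of the 3 lineage genes Itgax, Flt3 and Zbtb46. Its probe gave 9.06, 9.66, 8.33 and 8.15 in controls 1 to 4. In S539, S588, S589 and S590 it gave 6.94, 5.72, 6.85 and 7.31. The groups were 0.84 apart, controls 1 and 2 were the highest arrays, and S588 was the lowest. The mean log2 difference was -2.09 (SE 0.44, 95% confidence interval -3.11 to -1.07, exact permutation p = 0.0286), but with an SD of 0.70 and 0.69 it did not pass in limma (adjusted p = 0.101). Without controls 1 and 2 it was -1.53 (limma adjusted p = 0.275).

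Flt3, the receptor for the cytokine that expands dendritic cells from their progenitors, was uneven among the exposed thyroids. Its RefSeq probe gave 7.02, 7.88, 7.13 and 6.81 in the controls, and 6.03, 8.62, 6.10 and 6.35 in S539, S588, S589 and S590. S588 was above every control and the other exposed thyroids were below every control. S588 is also the array that stood apart in neutrophil genes, whose part in this value was not tested. Flt3 differed by -0.43 on the log2 scale (SE 0.59, limma adjusted p = 0.786), and it was -1.05 without S588 (limma adjusted p = 0.239) and -0.19 without controls 1 and 2 (limma adjusted p = 0.929). A second Flt3 probe, designed on a cDNA outside RefSeq, lay between 6.54 and 7.10 in the controls and between 6.75 and 7.28 in the exposed thyroids, a log2 difference of 0.14 (limma adjusted p = 0.777; -0.01 without controls 1 and 2), and the last, at chr5:148178496-148178555, was well above background on 1 of 8 arrays, at 3.06 to 4.17 in the controls and 3.00 to 4.79 in the exposed thyroids, with log2 differences of 0.44, and 0.76 without controls 1 and 2.

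Zbtb46, a transcription factor of conventional dendritic cells, overlapped between the groups on both of its probes. The RefSeq probe at chr2:181146404-181146463 gave 6.82, 7.75, 7.62 and 7.51 in the controls, and 7.18, 7.02, 7.50 and 7.14 in the exposed thyroids in the order above. Control 1 was the lowest of the 8 arrays. The log2 difference was -0.22, with a 95% confidence interval of -0.75 to 0.32 (limma adjusted p = 0.723), and -0.36 without controls 1 and 2 (limma adjusted p = 0.469). The second probe, at chr2:181145799-181145858, was more scattered, at 5.45 to 7.20 in the controls and 4.75 to 6.41 in the exposed thyroids, with a log2 difference of -0.78 (SE 0.50, 95% confidence interval -1.93 to 0.37, limma adjusted p = 0.556), and -1.11 without controls 1 and 2 (limma adjusted p = 0.418).

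Irf8 and Batf3 are the transcription factors on which type 1 conventional dendritic cells depend. Irf8 gave 11.76, 11.73, 11.18 and 10.78 in controls 1 to 4. It gave 10.15, 9.95, 10.01 and 10.04 in S539, S588, S589 and S590. The exposed thyroids were close to each other (10.04 ± 0.08, SD, n = 4), the controls were more spread (11.36 ± 0.47, SD, n = 4), and the groups were 0.64 apart. The log2 difference was -1.33 (SE 0.24, 95% confidence interval -1.87 to -0.78, exact permutation p = 0.0286), and the adjusted p of 0.0581 in limma was just over the threshold. It was -0.95 without controls 1 and 2, the controls in which Irf8 was highest (limma adjusted p = 0.16).

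Batf3, read by a probe at chr1:192932528-192932587, moved less. It gave 7.83, 8.12, 7.54 and 7.57 in the controls, and 7.14, 6.43, 7.34 and 7.12 in the exposed thyroids. S588 was the lowest, as it was for Itgax, and S589 was 0.20 below the lowest control. For Batf3 the log2 difference was -0.76 (SE 0.24, limma adjusted p = 0.262), and -0.55 without controls 1 and 2 (limma adjusted p = 0.462).

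**Figure D1:**
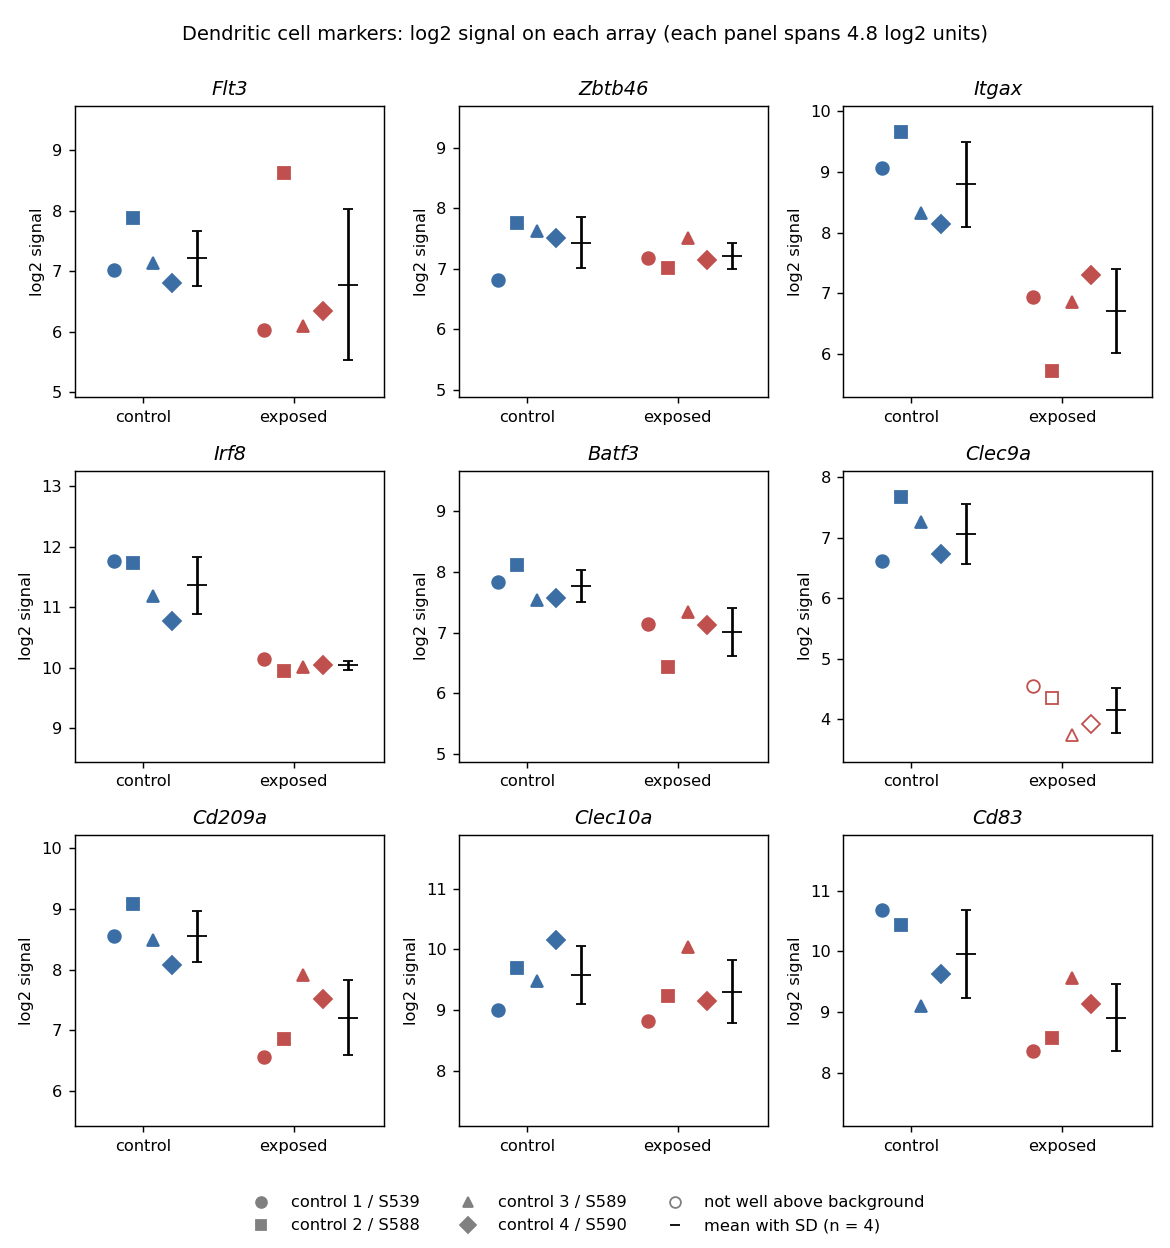
Log2 signal (y axis) of the 9 dendritic cell markers, each by its gene probe, on the 4 control arrays (blue) and the 4 exposed arrays (red), with the mean and SD of each group. Symbol shapes only tell arrays apart and pair none of them. The exposed Clec9a symbols, open because none was well above background, lie between 3.75 and 4.55, below all controls, while for Flt3 S588 stands at 8.62 above all controls.

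Neither lectin of type 2 and monocyte-derived dendritic cells passed the threshold. Cd209a, a mouse homologue of human DC-SIGN, gave 8.55, 9.08, 8.49 and 8.07 in the controls on its RefSeq probe, and 6.56, 6.85, 7.91 and 7.52 in S539, S588, S589 and S590. S539 and S588 were well below the controls, and S589 was 0.16 below control 4. The log2 difference was -1.34 (SE 0.34, 95% confidence interval -2.13 to -0.55, limma adjusted p = 0.168), and -1.07 without controls 1 and 2 (limma adjusted p = 0.366). The probe that crosses an intron was well above background on 1 of 8 arrays and overlapped between groups, at 3.65 to 5.39 in controls and 3.83 to 5.23 in exposed thyroids (log2 fold change -0.21, limma adjusted p = 0.865), and its log2 difference was -0.39 without controls 1 and 2.

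Clec10a, a lectin that binds galactose-type sugars and marks type 2 dendritic cells and some macrophages, was read by a probe at chr11:69984254-69984313. It gave 9.0, 9.69, 9.47 and 10.16 in the controls, and 8.81, 9.23, 10.03 and 9.14 in the exposed thyroids. The highest exposed thyroid, S589, was above 3 of the 4 controls. Clec10a had a log2 difference of -0.28, with a 95% confidence interval of -1.03 to 0.48 (limma adjusted p = 0.754), and -0.51 without controls 1 and 2 (limma adjusted p = 0.596).

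Cd83, a surface protein that rises as dendritic cells mature and holds MHC class II at the surface, was read by a probe at chr13:43898276-43898335. It gave 10.68, 10.44, 9.10 and 9.62 in controls 1 to 4, and 8.36, 8.58, 9.57 and 9.14 in the exposed thyroids. Controls 1 and 2 were the highest, and controls 3 and 4 lay within or next to the exposed range. For Cd83 the log2 difference was -1.05 (SE 0.41, exact permutation p = 0.0857, limma adjusted p = 0.372), and -0.45 without controls 1 and 2 (limma adjusted p = 0.637).

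Read gene by gene, on the RefSeq probe of highest mean signal, 1 of the 9 markers was called lower, where 0.207% of all 34797 genes were, and none was called higher, where 0.695% were. At an unadjusted p under 0.05 in limma, 6 of the 9 were lower, where 6.29% of all genes were, and 0 were higher, where 6.56% were. The 9 markers were chosen with earlier results of these data known, so the counts of this paragraph are no independent support. All 9 were well above background on the 4 control arrays, while all genes include 3342 that were so on no array. The log2 difference was below 0 for 9 of the 9 markers, against 49.0% of all genes, and its median was -1.05 against 0.01. The groups did not overlap, with the exposed lower, for 5 of the 9 markers, where 4.74% of all genes did so, and for none with the exposed higher, where 5.25% did so. Leaving out controls 1 and 2, the difference was below 0 for 9 of the 9, where it was for 17573 of the 34797 genes, and the median was -0.55. Limma called no marker in that setting, where it called 89 of all 55681 probes, against 435 with all controls. At an unadjusted p under 0.05 in limma, 4 of the 9 were lower there, where 6.85% of all genes were.

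**Figure D2:**
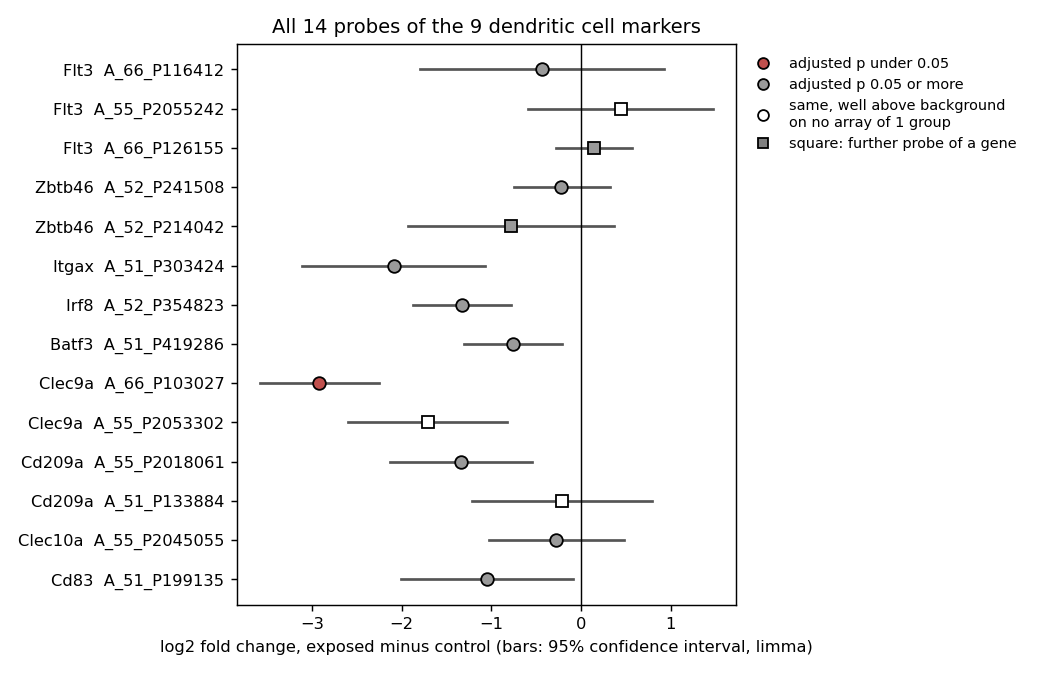
Log2 fold change, exposed minus control (x axis), with its 95% confidence interval for the 14 probes of the 9 markers (y axis), circles for the probe that stands for the gene and squares for further probes. Clec9a A_66_P103027, at -2.92, is the only probe with an adjusted p under 0.05. The intervals of all probes of Flt3, Zbtb46 and Clec10a and of the Cd209a probe A_51_P133884 include 0.

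Whether the markers differed in the size of their change was tested for all 36 pairs, with the difference of their log2 signals on each array as the value in a two-sided exact permutation test. Of these pairs, 11 reached the smallest p the design allows, 0.0286, and 6 of the 11 involved Clec9a, whose exposed signals, being not well above background, are only bounds in every pair and r value below. The log2 fold change of Clec9a minus that of Clec10a was -2.64, and minus that of Cd209a it was -1.58 (exact permutation p = 0.0286 for each). That of Irf8 was above that of Clec9a by 1.59 and that of Batf3 by 2.16 (exact permutation p = 0.0286 for each). The fold change of Itgax minus that of Batf3 was -1.33, and that of Zbtb46 was above that of Irf8 by 1.11 (exact permutation p = 0.0286 for each). After adjustment over the 36 pairs the lowest p was 0.0935, so no pair passed. Over the 8 arrays, with group means removed, Itgax and Batf3 varied together most (r = 0.90), and Clec9a showed r between -0.41 and 0.44 with the other markers. Arrays share their RNA preparation and normalization between genes, so these r values describe the arrays.

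By array, control 2 was the highest control for 6 of the 9 markers and control 4 the lowest for 4. Among the exposed thyroids S589 was the highest for 5 of 9, and S539 and S588 were the lowest for 4 each. With the mean over all arrays subtracted from each gene, the average of the 9 markers was 0.54, 1.06, 0.40 and 0.32 in controls 1 to 4. It was -0.76, -0.64, -0.38 and -0.54 in S539, S588, S589 and S590. In this average controls 3 and 4, in which the thymocyte genes were low, were above all exposed thyroids. Taken singly, 6 of the 9 markers had all exposed thyroids below controls 3 and 4, where 5079 of all 34797 genes did. The part of thymocytes in these values was not tested.

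Lists of further genes of the same cells were read in the same way. Of 66 genes in 5 dendritic cell lists found on the array, 1 was called lower and 1 higher, where 0.207% and 0.695% of all genes were. For 48 of the 66 the log2 difference was below 0, against 49.0% of all genes, and the median was -0.39 against 0.01. At an unadjusted p under 0.05 in limma, 16 of the 66 were lower and 4 higher, where 6.29% and 6.56% of all genes were. Wdfy4, which type 1 dendritic cells need to present antigen of dead cells, was the one called lower, among 11 genes of its list with a median of -0.70. By unadjusted p in limma, 4 of these 11 genes were lower and 0 higher. Wdfy4 is one of these 4. It gave 10.78, 11.17, 10.18 and 9.65 in the controls and 8.37, 8.30, 8.25 and 8.19 in the exposed thyroids (log2 fold change -2.17, SE 0.31, limma adjusted p = 0.0291). Without controls 1 and 2 it was -1.64 and did not pass (limma adjusted p = 0.0716), and the median of the list was -0.65. The 4 exposed thyroids lay close together and at least 1.28 below every control, like those of Irf8 in their narrow range. Xcr1, the chemokine receptor of the same cells, and Ly75, their endocytic receptor DEC-205, were well above background on no array, and both are named here after their values were seen.

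Among 16 genes of mature and migrating dendritic cells, Cacnb3, a calcium channel subunit, was called higher. It gave 9.13, 9.34, 9.11 and 8.69 in the controls and 10.74, 10.14, 10.16 and 10.15 in the exposed thyroids (log2 fold change 1.23, limma adjusted p = 0.0472). Without controls 1 and 2 it was 1.39 and did not pass (limma adjusted p = 0.152). The list had a median of -0.40, and -0.19 without controls 1 and 2, with 10 of its 16 genes below 0. At an unadjusted p under 0.05 in limma, 6 of the 16 were lower and 2 higher, where 6.29% and 6.56% of all genes were. In 5 of the 16 the groups did not overlap with the exposed lower, as for 4.74% of all genes. One of these was Cd86, a costimulatory protein for T cells, at -1.75 (limma adjusted p = 0.0535), named here after its value was seen. Like Irf8, Cd86 is named in pathways of the genes that the study selected. No gene was called among 12 lineage genes (median -0.36), where Cd24a and Bcl6 were the brightest at 0.04 and -0.62, or among 18 genes of type 2 and monocyte-derived cells (median -0.32), where Mgl2 and Klf4 were the brightest at -0.03 and 0.51. None was called among 9 genes of plasmacytoid and Langerhans cells (median -0.19), where Siglech and Pacsin1 were the brightest at 0.28 and 0.00. The brightest genes of each list were named for their signal alone, and which cells of the thyroid gave it was not tested. Among 9 relatives of Irf8 and Batf3, which include Irf3 at 0.39, none was called either, and their median was -0.12. At an unadjusted p under 0.05 in limma, 3 lineage genes, 3 genes of type 2 cells and 3 relatives of Irf8 and Batf3 were lower, and 1 gene each of the type 2, plasmacytoid and relatives' lists was higher, where 6.29% of all genes were lower and 6.56% higher. Without controls 1 and 2 the medians were -0.27 for lineage genes, -0.15 for type 2 cells, 0.14 for plasmacytoid and Langerhans cells and -0.17 for the relatives.

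MHC class II genes, through which dendritic cells and other cells present antigen, had a median log2 difference of -1.33 over 12 genes. H2-Aa was called lower, with 9.07, 9.77, 8.95 and 8.54 in the controls and 6.88, 6.09, 7.43 and 7.07 in the exposed thyroids (log2 fold change -2.22, limma adjusted p = 0.0386), but it did not pass without controls 1 and 2 (-1.88, limma adjusted p = 0.189). Of all genes, 0.207% were called lower. In 8 of the 12 the groups did not overlap, with the exposed lower, as for 4.74% of all genes, and the median was -0.84 without controls 1 and 2. At an unadjusted p under 0.05 in limma, 10 of the 12 were lower and 0 higher, where 6.29% and 6.56% of all genes were. The centred mean of the list was 0.98, 1.05, 0.34 and 0.03 in the controls and -0.68 to -0.48 in the exposed thyroids, and as for the 9 markers the controls stood in the order 2, 1, 3 and 4 from the highest down.

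Markers of other cells were set beside these values. Over 15 macrophage and monocyte genes the median was -0.27 and 1 gene was called lower, the chemokine receptor Cx3cr1, which tissue macrophages and some dendritic cells carry (10.63, 11.46, 10.79 and 10.47 in controls against 8.60, 8.53, 8.17 and 8.32 in exposed thyroids, log2 fold change -2.43, limma adjusted p = 0.00714). Of all genes, 0.207% were called lower. In 4 of the 15 genes the groups did not overlap, with the exposed lower, where 4.74% of all genes did so. At an unadjusted p under 0.05 in limma, 4 of the 15 were lower and 0 higher, where 6.29% and 6.56% of all genes were. Without controls 1 and 2, Cx3cr1 was still called (-2.22, limma adjusted p = 0.0391) and the median of the list was -0.22. Over 8 genes common to leukocytes none was called and the median was -1.42, which became -0.33 without controls 1 and 2. Ptprc, the CD45 gene of all leukocytes, gave 10.22, 9.53, 7.81 and 7.65 in the controls and 6.99 to 7.15 in the exposed thyroids (log2 fold change -1.75, limma adjusted p = 0.28, and -0.68 without controls 1 and 2), with controls 3 and 4 much closer to the exposed thyroids than controls 1 and 2. T cell genes (10, median -1.77) and thymocyte genes (9, median -1.81) had medians of -0.01 and 0.58 without controls 1 and 2, and that of the 9 markers was -0.55 there, against -1.05 with all controls.

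No gene was called in the lists of B cells (9 genes, median -0.41), NK cells (6, median 0.06), neutrophils (7, median 1.08) or thyrocytes (9, median -0.21), and without controls 1 and 2 the medians were -0.34, 0.16, 1.13 and -0.35 in the same order. The brightest genes of the lists with no call were Coro1a at -1.79 and Lcp1 at -0.46 for leukocytes, Lck at -1.82 and Cd3e at -0.83 for T cells, and Cd4 at -0.41 and Satb1 at -1.82 for thymocytes. They were Cd22 at 0.41 and Cd79b at -0.42 for B cells, Gzma at -1.55 and Prf1 at 0.53 for NK cells, S100a9 at 1.59 and Mpo at 0.96 for neutrophils, and Tg at 0.04 for thyrocytes. At an unadjusted p under 0.05 in limma, 5 leukocyte, 1 T cell, 2 thymocyte, 1 B cell, 2 NK cell, 0 neutrophil and 1 thyrocyte genes of these lists were lower, where 6.29% of all genes were, and none was higher. The part of any of these cells in the values of the 9 markers was not tested.

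**Figure D3:**
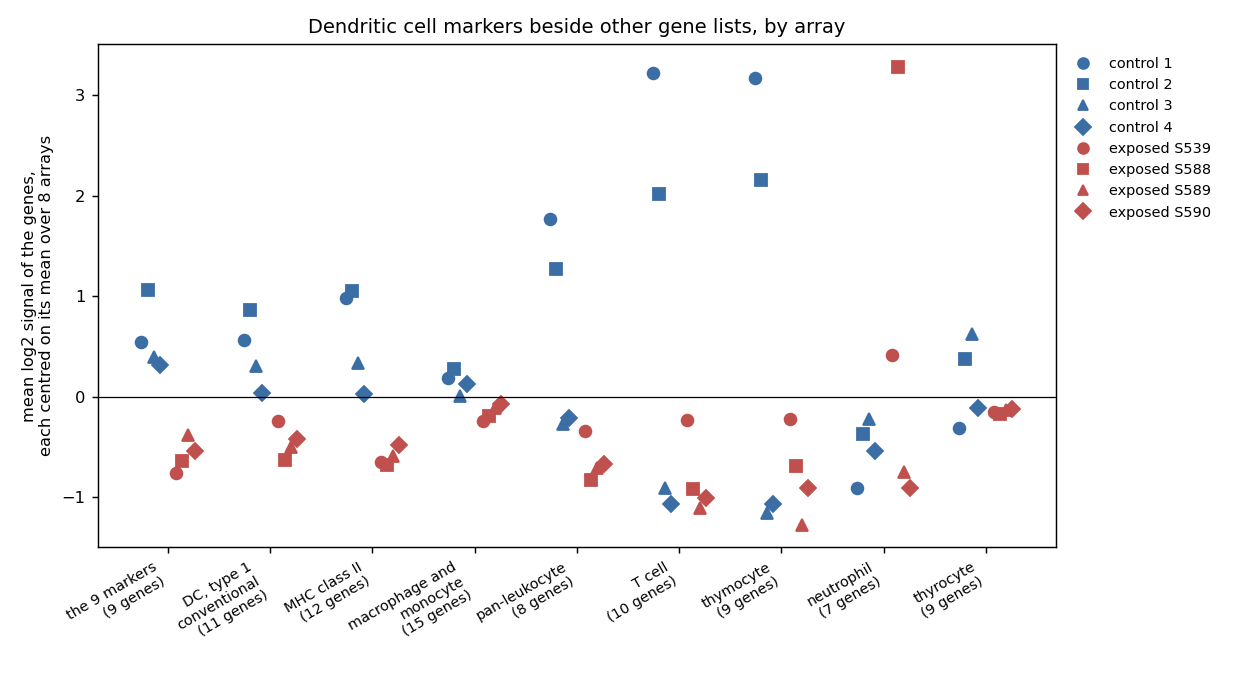
Mean log2 signal of each gene list (x axis) on each array, every gene centred on its mean over the 8 arrays (y axis), for controls (blue) and exposed thyroids (red). For the 9 markers all controls lie at 0.32 or above and all exposed thyroids at -0.38 or below, while in the T cell and thymocyte lists controls 1 and 2 alone are high, and S588 alone is high in the neutrophil list at 3.28.

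Outside these lists, 14892 RefSeq genes were well above background on all 8 arrays. The 5 whose log2 signal followed the mean of the 9 markers most closely over the 8 arrays were Atic (r = 0.990), Apex1 (0.989), Coro7 (0.984), Ptpn22 (0.982) and Mpeg1 (0.982). Atic encodes an enzyme of purine synthesis, Apex1 a base excision repair enzyme, Coro7 a protein of the Golgi, Ptpn22 a phosphatase of leukocytes, and Mpeg1 a pore-forming protein of macrophages and dendritic cells. Ptpn22 was called lower, with a log2 fold change of -2.37 (limma adjusted p = 0.0172), but not without controls 1 and 2 (-1.98, limma adjusted p = 0.112). Mpeg1 was not called, at -1.23 (limma adjusted p = 0.0873). The 8 arrays form 2 groups, so differences between and within groups both enter these r values.

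Since Irf8 and Batf3 bind DNA at known motifs, the promoters of the markers were searched for these letters on both strands. Windows of 250 bases before to 50 after the transcription start were taken from RefSeq on GRCm38.p6, with 8 windows for 7 of the markers, namely Flt3, Zbtb46, Itgax, Irf8, Batf3, Clec9a and Cd209a. The windows of Itgax and Cd209a hold a motif of these factors, in capitals, and that of Clec9a holds none of the motifs searched. The Itgax window is chr7:128129300-128129599 on the plus strand, with AP-1 in capitals, that of Cd209a is chr8:3748935-3749234 on the minus strand, with EICE in capitals, and that of Clec9a is chr6:129408612-129408911 on the plus strand.
Itgax: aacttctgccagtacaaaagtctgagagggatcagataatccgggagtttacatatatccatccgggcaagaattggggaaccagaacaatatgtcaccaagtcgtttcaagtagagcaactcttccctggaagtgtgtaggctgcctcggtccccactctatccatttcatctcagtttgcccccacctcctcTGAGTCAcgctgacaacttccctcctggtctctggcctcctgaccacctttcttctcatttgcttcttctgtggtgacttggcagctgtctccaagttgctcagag
Cd209a: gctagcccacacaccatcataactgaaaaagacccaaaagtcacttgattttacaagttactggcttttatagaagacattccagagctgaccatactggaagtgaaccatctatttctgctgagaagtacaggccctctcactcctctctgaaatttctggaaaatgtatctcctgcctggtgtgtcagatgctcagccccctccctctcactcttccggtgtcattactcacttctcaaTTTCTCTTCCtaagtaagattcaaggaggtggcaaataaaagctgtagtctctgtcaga
Clec9a: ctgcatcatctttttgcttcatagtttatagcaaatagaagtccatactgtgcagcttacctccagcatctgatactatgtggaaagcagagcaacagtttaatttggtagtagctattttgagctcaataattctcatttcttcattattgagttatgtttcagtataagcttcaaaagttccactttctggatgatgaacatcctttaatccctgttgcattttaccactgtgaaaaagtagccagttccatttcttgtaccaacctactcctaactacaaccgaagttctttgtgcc
The AP-1 motif TGANTCA, which BATF factors share, was found 56 bases before the start in Itgax and 61 before it in Zbtb46, that is in 2 of 8 windows, and in 7.81% of 32851 promoters of this length. The EICE motif of PU.1 with IRF8 or IRF4, which is GGAA and GAAA with 2 bases between them, was found in 1 of 8 windows, that of Cd209a, 9 bases before the start on the opposite strand, and in 2.72% of promoters. The GAS motif TTCNNNGAA of STAT factors was found in 2 windows, those of Batf3 and Irf8, and in 8.3% of promoters. The ISRE motif of IRF factors, a repeat of GAAA with 2 bases between them (3.44% of promoters), the AICE motif of BATF with IRF factors, AP-1 followed by GAAA after 4 bases (0.119%), and the PU.1 motif GAGGAAGT (3.2%) were in none of the 8. These matches describe letters and are not binding sites, and whether they bear on the differences of the markers was not tested.

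The change of Clec9a passed in limma under 17 of 18 other ways of processing the arrays, at log2 values from -3.24 to -1.08, and missed the threshold without controls 1 and 2. Among the 17 is the setting with dim probes left out. There Clec9a was kept only through the control arrays, where it was well above background, so this setting is no independent support. The value nearest to 0, -1.08, came with normexp background correction and an offset of 50, and the deposited log2 values, which hold no background subtraction, gave -1.15. Irf8 passed in 9 of the 18 and Itgax in 4, those with no or another background correction among them, so that up to 3 of the 9 markers were called lower. In the settings that called 3 markers, 224 to 314 of all probes were called lower, against 108 as reported, so calls rose in general there.

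**Figure D4:**
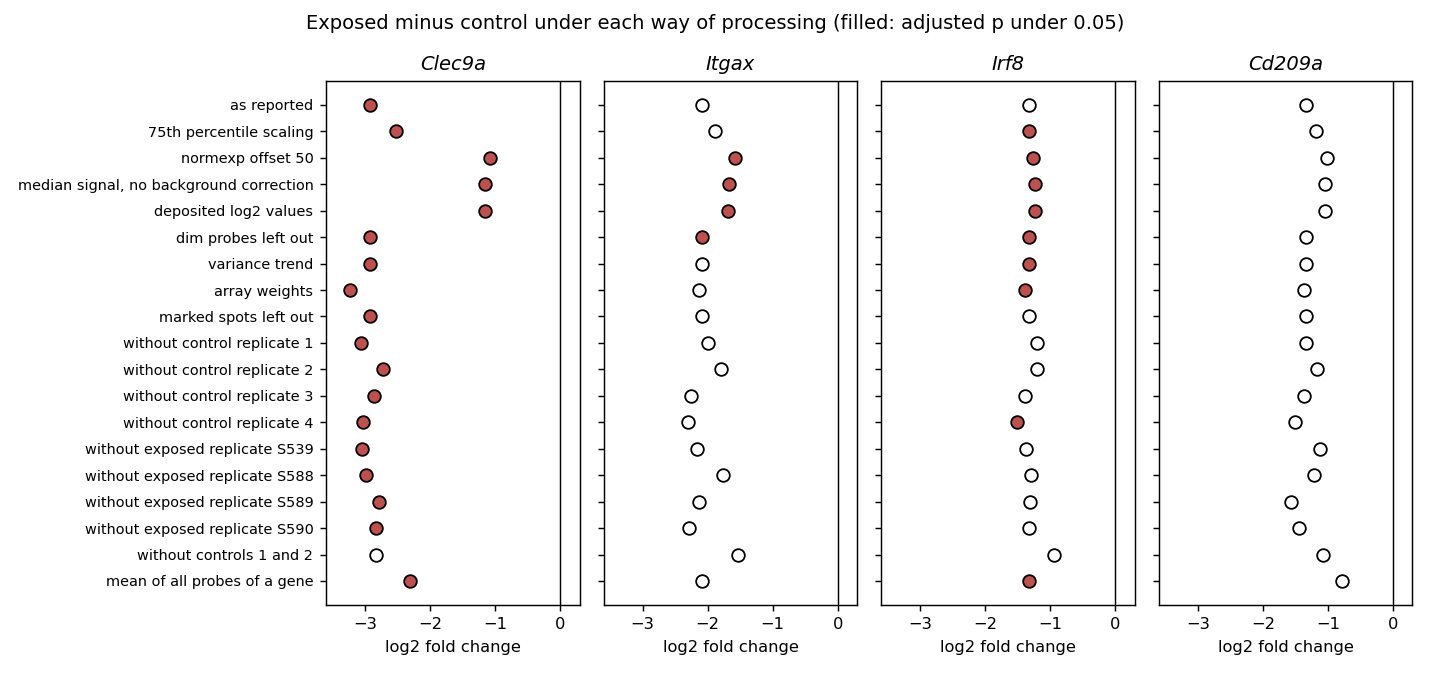
Log2 fold change, exposed minus control (x axes), of Clec9a, Itgax, Irf8 and Cd209a as reported and under each alternative way of processing the arrays (y axis), filled where the adjusted p was under 0.05. Every value is below 0. Clec9a is open only without controls 1 and 2, at -2.84, and Cd209a is open throughout.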

How the data were processed

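Thyroid RNA of 4 exposed and 4 control mice was hybridized to 8 one-colour Agilent SurePrint G3 8x60K arrays (Cy3, Low RNA Input QuickAmp). The authors deposited the scanner intensity of each spot, made by Feature Extraction 10.7.3.1, and log2 values. Per their methods, slides were normalized to each other by quantiles with limma, and genes were selected at an adjusted p of 0.05. The deposited log2 values were used as an alternative only.

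Here the log2 of the background-subtracted intensity was quantile-normalized, without control spots, and spots of a probe were averaged. The 2 groups were then compared with limma's lmFit and eBayes (limma 3.58.1, R 4.3.3) over all 55681 probes with Benjamini-Hochberg adjustment. A gene stands by its RefSeq probe of highest mean signal. Where no array of a group had a probe well above background, the fold is a bound as to the dim signals only. It does not cover the spread between arrays or the choice of processing. There each dim array entered with its own signal or with its lowest signal well above background, whichever was higher, and their mean was set against that of the bright group. The procedure was tested on simulated data.

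The 9 markers, 15 lists (165 genes) and tests were chosen with earlier results of these data known. The genes named were all markers, Ptprc, Tg, the called genes of each list or else its 2 brightest, and the 5 genes of highest r, and some genes that this rule names are not reported here. Alternatives were 75th percentile scaling, normexp with an offset of 50, the median signal without background correction, the deposited values, dim probes left out, a variance trend, array weights, marked spots left out, the mean of all probes of a gene, and leaving out each array. With dim probes left out, a probe was kept if it was well above background on all 4 arrays of either group. Leaving out controls 1 and 2 was chosen after seeing the data. The number of arrays limits the precision.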

Additional observations from a re-analysis of the deposited data

Results flagged for a closer look

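In groups of 4 arrays, the gap of the highest or lowest array to its nearest neighbour was compared with the range of the group by Dixon's criterion at the 95% level. Of 28 groups, formed by 14 probes in controls and exposed thyroids, 2 passed, where chance flags about 1 in 20, or 1.4 of 28. Flt3 on its RefSeq probe A_66_P116412 was 8.62 in S588 and between 6.03 and 6.35 in the other exposed thyroids, a gap of 0.879 of the range. Clec9a on its dimmer probe A_55_P2053302 was 3.81 in S539 and between 3.00 and 3.09 in the other exposed thyroids, a gap of 0.883 of the range, and none of these signals was well above background.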

How the results depend on the processing

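As reported, 1 of the 9 markers (1 of 14 probes) was called lower, with 435 probes called in all, 108 of them lower. All marker counts below are of calls lower. With 75th percentile scaling, 2 markers (2 probes) were called, with 577 probes in all, 88 of them lower. With normexp, the median signal, the deposited values and dim probes left out, 3 markers (3 probes) were called. The probes called in all were 856, 962, 955 and 733 there, of which 270, 314, 310 and 224 were lower. The variance trend gave 2 markers (2 probes), where 222 of 744 called probes were lower. Array weights gave 2 markers (3 probes), where 375 of 959 called probes were lower, and the mean of all probes of a gene gave 2 markers. Leaving out each array in turn gave 1 to 2 markers and 1 to 2 marker probes, with 100 to 481 probes in all and 15 to 166 lower. Leaving out controls 1 and 2 gave 0 markers and 0 marker probes, with 89 probes in all and 30 lower. The cause of these shifts was not tested.

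Signs turned only for probes or genes that did not pass. The intron-crossing Cd209a probe, at -0.21 as reported, was 0.28 with 75th percentile scaling, 0.04 with normexp, 0.07 with the median signal and 0.07 with the deposited values, and ranged from -0.56 to 0.02 when each array was left out. The dim Flt3 probe A_55_P2055242, at 0.44 as reported, was -0.09, -0.13 and -0.13 with normexp, the median signal and the deposited values. Flt3 was 0.05 by the mean of all its probes, and its probe A_66_P126155 was -0.01 without controls 1 and 2. Scaling to the 75th percentile moved the median of all probes to 0.16, with Clec9a at -2.53 there, and 84.7% of the called probes were higher in exposed thyroids, against 75.2% as reported, 67.5% with the deposited values and 60.9% with array weights. No paired analysis was possible because the labels give the 2 groups no shared replicate numbers.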
